A study of Homo sapiens with 12 samples.

Results

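The SR splicing factors are a family of RNA-binding proteins, and the transcripts of 10 of their genes, SRSF1, SRSF2, SRSF3, SRSF4, SRSF5, SRSF6, SRSF7, SRSF9, SRSF10 and SRSF11, were followed here among the 57820 genes counted in each library. The 10 genes were taken by name, and every one was found in the deposited tables by its gene identifier and passed the filter on low counts in every comparison. Their RNA was measured in T47D-MTVL cells, a human luminal breast cancer line that carries a luciferase reporter behind the MMTV promoter and was grown in charcoal-treated serum with no phenol red and no R5020, a progestin. There were 6 groups of 2 libraries. In the siRNA experiment, cells received a control siRNA (siCtrl) or an siRNA against PADI2 (siPADI2), an enzyme that converts arginine to citrulline, by Lipofectamine transfection. Poly(A) RNA and chromatin-associated RNA were each sequenced from both of these arms. In the polymerase experiment, cells expressed an alpha-amanitin-resistant, HA-tagged RNA polymerase II (RNAP2) for 24 h, either wild type (WT) or with an arginine of its C-terminal domain changed to alanine (R1810A), and then spent 12 h in 6 µg/ml alpha-amanitin, a toxin that blocks the cells' own polymerase. Only poly(A) RNA was sequenced in that experiment. Nothing in the labels tells if replicate libraries were grown as separate cultures, and p-values therefore reflect the spread of these libraries alone, possibly a technical spread.

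SR proteins carry RNA recognition motifs and a tail rich in arginine and serine. They bind exonic splicing enhancers, help the early spliceosome find splice sites, and several of them also accompany mRNA to the cytoplasm and take part in export and translation. Their activity depends on phosphorylation of the tail by SRPK kinases in the cytoplasm and CLK kinases in the nucleus. Many SR genes limit their own expression through poison exons or retained introns, whose inclusion sends the transcript to nonsense-mediated decay or holds it in the nucleus. In the GENCODE 29 annotation the 10 genes have 107 transcripts, of which 39 are protein-coding, 22 are marked as targets of nonsense-mediated decay and 28 as retained introns. Gene counts add all of these together, so a change in a count does not say which transcript of the gene changed.

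Each of the 8 poly(A) libraries held 44318629 to 132764704 counts assigned to genes, and each of the 4 chromatin libraries 2720080 to 7040541. The 10 SR genes together took 0.144 to 0.179% of the counts of a poly(A) library and 0.0537 to 0.0683% of those of a chromatin library. PADI2, the target of the siRNA, was at 33.8 and 32.8 CPM (counts per 1000000 counts of a library after TMM scaling) in poly(A) siCtrl, and at 2.73 and 2.77 in poly(A) siPADI2. In chromatin RNA it was at 16.8 and 15.0 in siCtrl and at 4.06 and 6.58 in siPADI2. In the libraries labelled R1810A PADI2 was low too, at 4.54 and 3.31 CPM against 68.9 and 74.0 in WT, although no siRNA against it is stated for them. All 12 luminal breast markers checked (among them ESR1, PGR and KRT19) were detected, and none was under 1 CPM in all libraries of a group, with summed levels of 17899 to 18830 CPM in poly(A) siCtrl, 10888 to 11835 in poly(A) siPADI2, 16513 to 17944 in WT and 11533 to 12491 in R1810A. Of these 12 markers 8 fell and 1 rose after siPADI2, and 8 fell and 2 rose in R1810A. This is 66.7% lower in each, beside 27.9 and 24.3% of all genes tested. Called in either direction were 75 and 83.3%, beside 56.7 and 46.9% of all genes. The part of these markers in the SR results, like that of the low PADI2 in R1810A, was not tested.

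On the hg19 build with GENCODE 19 genes, which the authors' tables use, the 10 genes lie on 7 chromosomes. SRSF1 (chr17:56080721-56084707, minus strand) and SRSF2 (chr17:74730197-74733456, minus strand) share chromosome 17. SRSF4 (chr1:29474255-29508499, minus strand), SRSF10 (chr1:24291294-24307417, minus strand) and SRSF11 (chr1:70671365-70718735, plus strand) share chromosome 1. The others are SRSF3 (chr6:36562145-36573377, plus strand), SRSF5 (chr14:70193617-70238722, plus strand), SRSF6 (chr20:42086568-42092245, plus strand), SRSF7 (chr2:38970741-38978636, minus strand) and SRSF9 (chr12:120899471-120907596, minus strand). Of the exonic bases of SRSF1, 9.91% are shared on the same strand with another annotated gene, AC015813.2, and 3.28% of those of SRSF2 with a gene named by its identifier alone, so reads from these stretches could not be told apart. A further 36.7% of the SRSF2 exons face exons of MFSD11 and AC005837.2 on the opposite strand, which strand-aware counting keeps apart. The processed pseudogenes SRSF1P1, SRSF9P1 and SRSF10P1 held 23, 48 and 37 counts in all 12 libraries together.

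Promoter sequences were read for 4 genes that moved with the treatments, since 3 of them (SRSF1, SRSF3 and SRSF7) were lower in both siPADI2 and R1810A poly(A) RNA and the fourth (SRSF4) was higher after siPADI2. They come from RefSeq (GRCh38.p14), which had a promoter for 9 of the 10 genes and none for SRSF2, and each runs from 250 bases before to 50 bases after an annotated start. Capitals mark matches on either strand to CCAAT (the CCAAT box), GGGCGG (the GC box), CCGGAAG (an ETS-type site), TATAAA (the TATA box), CACGTG (an E-box) and TGACGTCA (a cyclic AMP response element). No stretch shown matched more than 1 of these motifs.
SRSF1 (chr17:58007197-58007496, minus strand): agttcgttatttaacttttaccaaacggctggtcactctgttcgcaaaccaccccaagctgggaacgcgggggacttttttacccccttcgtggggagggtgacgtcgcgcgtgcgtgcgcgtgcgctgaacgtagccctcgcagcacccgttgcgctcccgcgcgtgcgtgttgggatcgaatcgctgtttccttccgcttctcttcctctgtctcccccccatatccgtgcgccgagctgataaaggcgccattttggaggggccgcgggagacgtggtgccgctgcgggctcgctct
SRSF3 (chr6:36594112-36594411, plus strand): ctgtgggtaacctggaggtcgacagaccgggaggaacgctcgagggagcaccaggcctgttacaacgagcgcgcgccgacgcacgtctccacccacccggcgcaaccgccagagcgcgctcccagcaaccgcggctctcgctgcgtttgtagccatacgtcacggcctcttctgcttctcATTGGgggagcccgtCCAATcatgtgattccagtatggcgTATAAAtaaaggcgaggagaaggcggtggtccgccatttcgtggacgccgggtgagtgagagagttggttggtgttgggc
SRSF7 (chr2:38751445-38751744, minus strand): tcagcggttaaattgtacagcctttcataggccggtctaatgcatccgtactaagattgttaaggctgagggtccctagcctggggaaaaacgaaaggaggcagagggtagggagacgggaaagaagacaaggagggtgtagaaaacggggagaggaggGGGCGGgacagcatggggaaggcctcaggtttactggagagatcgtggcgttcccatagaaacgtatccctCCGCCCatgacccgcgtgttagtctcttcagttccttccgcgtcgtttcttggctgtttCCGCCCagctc
SRSF4 (chr1:29181851-29182150, minus strand): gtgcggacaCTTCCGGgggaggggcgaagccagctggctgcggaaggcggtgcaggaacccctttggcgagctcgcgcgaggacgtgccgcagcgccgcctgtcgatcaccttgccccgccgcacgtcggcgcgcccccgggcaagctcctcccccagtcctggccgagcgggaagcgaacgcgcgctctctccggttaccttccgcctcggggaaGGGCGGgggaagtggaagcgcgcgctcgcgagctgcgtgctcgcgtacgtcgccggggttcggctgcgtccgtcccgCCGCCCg
The 4 windows held no motif in common. SRSF1 matched none of the 6. SRSF3 had 2 CCAAT boxes and a TATA box. Of the 35116 RefSeq promoters of the same length, 34.6% hold at least 1 CCAAT box, 10.8% hold 2 or more, and 11.5% hold at least 1 TATA box. The SRSF7 window shown had 3 GC boxes and that of SRSF4 had 2 GC boxes and 1 ETS-type site. At least 1 GC box is held by 45% of all promoters, 2 or more by 26.7%, and at least 1 ETS-type site by 10.3%. RefSeq has a second window for SRSF7, not shown, which overlaps the first and holds 3 GC boxes and a TATA box. The windows shown held 35 CpG dinucleotides in SRSF1, 30 in SRSF3, 17 in SRSF7 and 48 in SRSF4, and the second SRSF7 window held 28, with a GC content of 59.3%. SRSF4 had the highest GC content of the 11 promoter windows of the family, 74.7%, and 1 window each of SRSF11 and SRSF7 had the lowest, 53.7 and 55%. SRSF9, not called after siPADI2 in poly(A) RNA, came next to SRSF4 at 68.3%. GC content was not set against that of all promoters. SRSF6 and SRSF5, called in neither poly(A) comparison, also had matches, with 3 GC boxes in SRSF6 and 1 ETS-type site in SRSF5. These matches describe the letters in the windows only.

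Levels between genes were compared per length, as CPM per kilobase of merged exons. In poly(A) RNA of siCtrl cells the order ran from SRSF1, the founding member of the family, at 107.5 ± 7.83 (SD, n = 2), through SRSF9 at 94.8 ± 0.221, SRSF2 at 87.2 ± 4.58, SRSF6 at 73.2 ± 0.271 and SRSF3 at 58.7 ± 5.37. The other 5 genes were at 34.1 ± 0.106 (SRSF5), 29.4 ± 2.30 (SRSF7), 26.3 ± 2.07 (SRSF11), 20.6 ± 1.09 (SRSF10) and 17.0 ± 0.526 (SRSF4). No neighbours in this order overlapped in their library values. The order depended on the length used. The merged exons of SRSF10 span 10277 bases against 1856 for its mean protein-coding transcript in GENCODE 29, and those of SRSF9 3744 against 764, whereas those of SRSF6 span 3951 against 4325. Reads were counted on GENCODE 19 exons, so both lengths come from different annotations. For SRSF6 the transcript is longer than the exons counted, and its place on the second scale is affected by this mismatch. Per kilobase of mean protein-coding transcript SRSF9 came first at 464.6 ± 1.08, followed by SRSF1 at 220.4 ± 16.1 and SRSF2 at 179.3 ± 9.41. SRSF6 moved from the fourth to the ninth place, at 66.9 ± 0.248, where it overlapped SRSF7 at 70.6 ± 5.53, and SRSF3 and SRSF10 overlapped too. SRSF4 was last on both scales. In chromatin RNA of siCtrl cells, per kilobase of merged exons, SRSF9 led at 12.26 ± 0.679 and SRSF4 was again last at 2.88 ± 0.635, and SRSF6, SRSF1 and SRSF2 overlapped in sequence below SRSF9.

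**Figure D1:**
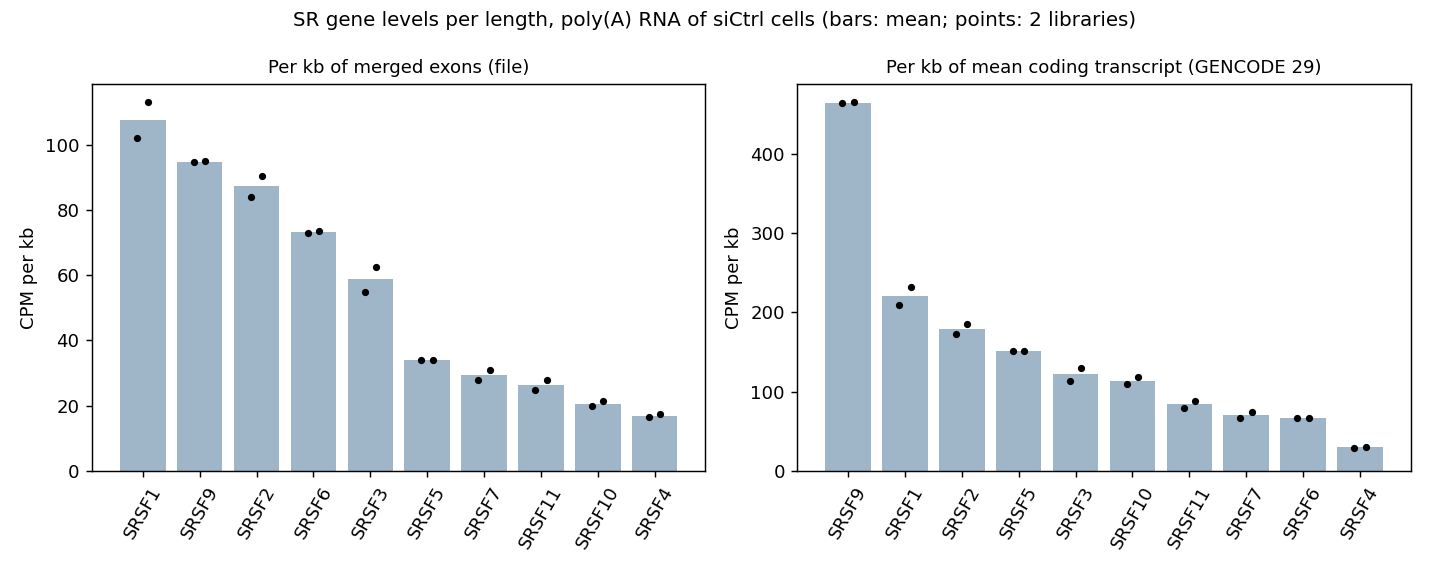
Level of each SR gene in poly(A) RNA of siCtrl cells, in CPM per kilobase, with bars for the mean and points for the 2 libraries, divided by merged exon length (left) or by mean protein-coding transcript length (right). SRSF1 leads on the left at 107.5 and SRSF9 on the right at 464.6, while SRSF4 is lowest on both.

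After PADI2 knockdown, the poly(A) RNA of 5 SR genes was lower and that of SRSF4 was higher. SRSF2, which binds purine- and cytosine-rich enhancers and is a recurrent target of mutation in myeloid disease, was at 253.3 and 272.8 CPM in siCtrl and at 185.7 and 190.8 in siPADI2. The siPADI2 libraries both lay below both siCtrl libraries, and the fitted change was a 1.45-fold fall (log2 -0.54 ± 0.0822 SE, 95% interval -0.70 to -0.37, edgeR quasi-likelihood test with Benjamini-Hochberg adjusted p = 5.36e-07). SRSF1, which also acts in mRNA export and translation, was at 340.5 and 377.5 CPM in siCtrl and 283.9 and 284.2 in siPADI2. Its groups did not overlap either, with a 1.31-fold fall (log2 -0.39 ± 0.0830 SE, adjusted p = 1.05e-04). SRSF3, a small SR protein that works as an adaptor for mRNA export, was at 290.0 and 330.1 CPM in siCtrl and 238.3 and 243.9 in siPADI2, a 1.33-fold fall (adjusted p = 4.99e-05). SRSF7, its closest relative and the SR protein with a zinc knuckle, was at 112.4 and 125.5 CPM in siCtrl and 93.8 and 95.7 in siPADI2 (1.305-fold, adjusted p = 1.49e-04). SRSF10, which becomes a repressor of splicing when dephosphorylated, as after heat shock, was at 203.3 and 219.1 CPM in siCtrl and 163.3 and 177.4 in siPADI2 (1.29-fold, adjusted p = 2.73e-04). In each of these 5 genes the groups were separate, beside 33.8% of all genes tested that were lower without overlap and 75.9% without overlap in either direction. In bulk RNA, less RNA per cell and fewer cells of a kind cannot be told apart.

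SRSF4, a longer SR protein with an extended arginine-serine tail, moved the other way. It was at 53.5 and 55.8 CPM in siCtrl and at 88.7 and 88.9 in siPADI2, a 1.56-fold rise (log2 0.65 ± 0.0861 SE, 95% interval 0.47 to 0.82, edgeR adjusted p = 3.51e-08). Both siPADI2 libraries lay above both siCtrl libraries. Its change was the largest in size of the 10 in this comparison. The remaining 4 genes did not pass the test. SRSF5 (182.2 and 183.0 CPM in siCtrl, 194.0 and 210.5 in siPADI2, adjusted p = 0.35) and SRSF6 (289.9 and 288.4 against 332.4 and 301.8, adjusted p = 0.447) had separate groups with small differences. SRSF9 was at 355.5 and 354.3 CPM in siCtrl and 337.7 and 326.7 in siPADI2, also separate (adjusted p = 0.117). Of the 10 genes, 6 were thus lower and 3 higher without overlap, beside 33.8 and 42.1% of all genes tested. SRSF11, a relative also known as p54, was at 210.5 and 235.3 against 199.9 and 229.4, with groups that overlapped (adjusted p = 0.289).

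The count of 6 SR genes in 10 stands beside 56.7% of the 18720 genes tested that were called in either direction in this comparison, so the share of SR genes that changed is near the background. The 5 that fell stand beside 27.9% of all genes called lower. Among protein-coding genes 63.5% were called in either direction and 30.8% were called lower. The median log2 change of the 10 was -0.26, against 0.01 for all genes tested. These CPM values are scaled across all 12 libraries, whereas fold changes are from the 4 libraries compared, which is why they differ slightly from ratios of the CPM. With the total count as library size the median of all genes rose to 0.19 and that of the SR genes to -0.07, 67% of the genes called were higher rather than 50.8%, SRSF10 was no longer called (adjusted p = 0.0571), and SRSF5 and SRSF6 were called higher (0.28 and 0.26). With each library corrected for GC content the SR median moved the other way, to -0.33, against 0.003 for all genes. Over 13 alternative settings the log2 change ran from -0.18 to 0.03 for SRSF9 and from -0.23 to 0.07 for SRSF11.

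**Figure D2:**
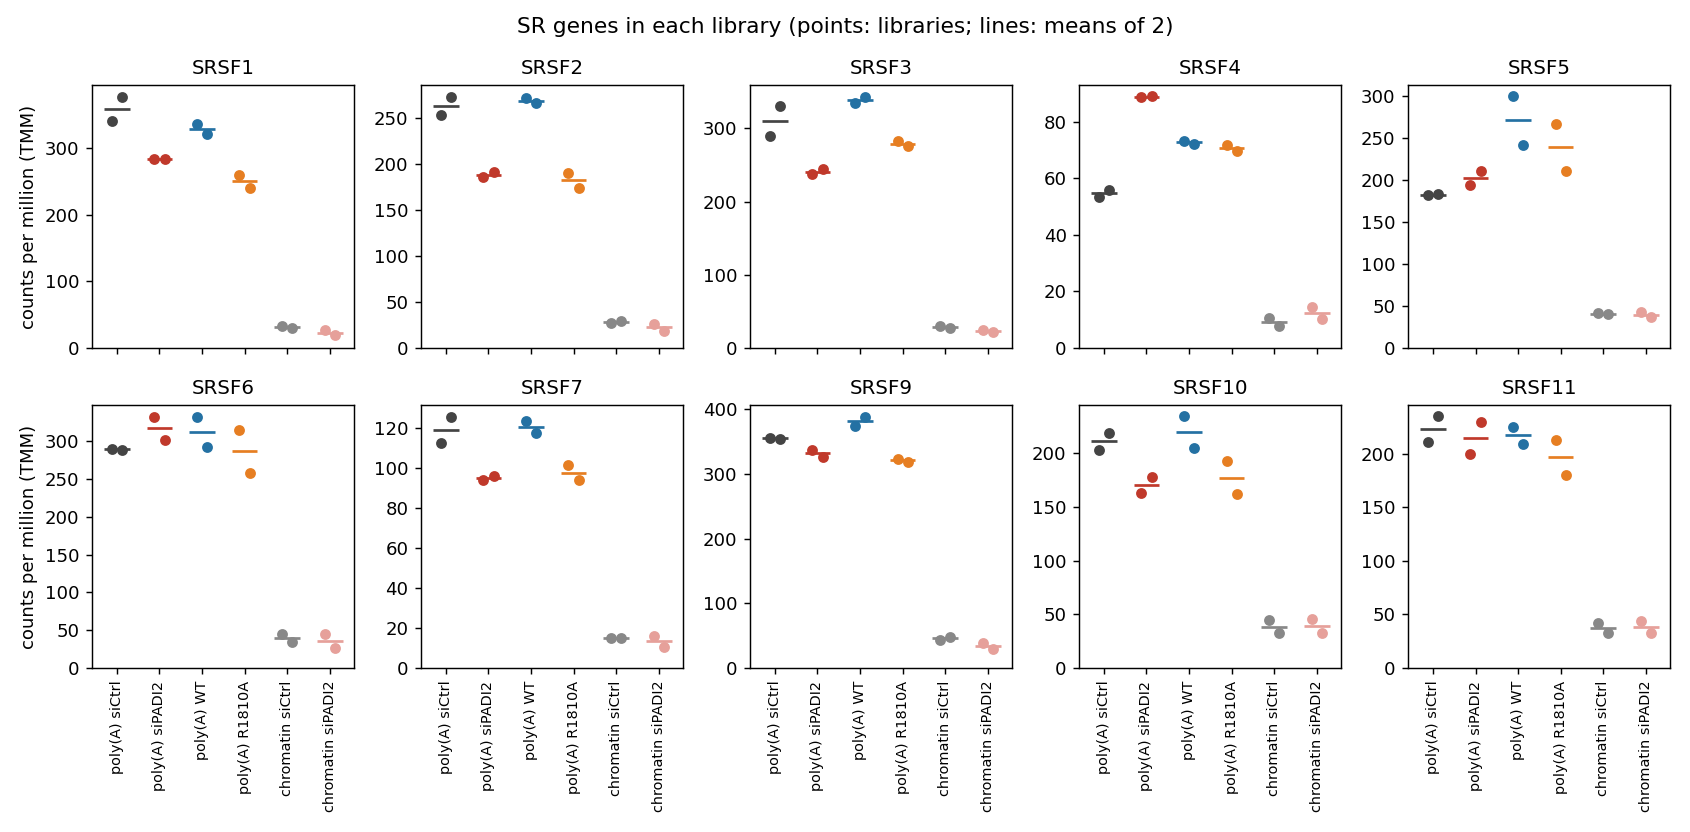
Level of each SR gene in CPM (vertical axis, starting at 0) in each of the 12 libraries, as points, with lines at the mean of the 2 libraries of a group. SRSF2 falls from 253.3 and 272.8 to 185.7 and 190.8 with siPADI2 and from 271.1 and 265.9 to 189.9 and 174.1 with R1810A, while SRSF4 is highest in the siPADI2 poly(A) libraries.

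In the polymerase experiment, SRSF1, SRSF2, SRSF3, SRSF7 and SRSF9 were lower in the libraries labelled R1810A than in WT, and none of the 10 was higher. SRSF2 was at 271.1 and 265.9 CPM in WT and at 189.9 and 174.1 in R1810A. The groups were far apart for their spread, with a 1.47-fold fall (log2 -0.56 ± 0.0628 SE, 95% interval -0.69 to -0.42, edgeR adjusted p = 9.13e-06). SRSF1 was at 336.3 and 321.6 CPM in WT and 260.7 and 240.6 in R1810A, a 1.31-fold fall (log2 -0.39 ± 0.0660 SE, adjusted p = 3.11e-04). SRSF3 was at 335.2 and 343.3 against 282.7 and 275.6 (1.21-fold, adjusted p = 0.00218). SRSF7 was at 123.1 and 117.2 against 101.1 and 94.0 (1.23-fold, adjusted p = 0.00148). SRSF9, one of the shortest SR proteins, was at 374.5 and 388.6 against 323.8 and 317.9 (1.19-fold, adjusted p = 0.00539). Without WT replicate 1 the adjusted p of SRSF9 was 0.0812. In each of these 5 genes both R1810A libraries lay below both WT libraries, as in 37.9% of all genes tested, and 72.4% did not overlap in either direction. With SRSF4 and SRSF10, which were not called, 7 of the 10 were lower without overlap.

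SRSF4 showed no difference of the size seen after siPADI2. It was at 73.1 and 72.3 CPM in WT and 71.9 and 69.5 in R1810A, with a log2 change of -0.04 (95% interval -0.16 to 0.09, adjusted p = 0.652). SRSF10 was at 234.7 and 205.0 CPM in WT and 192.7 and 162.0 in R1810A, which did not pass (log2 -0.31 ± 0.109 SE, adjusted p = 0.0647), although the DESeq2 Wald test called it (adjusted p = 0.0112). In SRSF5 the libraries numbered 1 were high in both groups: it was at 300.0 and 241.8 CPM in WT and 267.0 and 210.6 in R1810A, so that the groups overlapped (log2 -0.18 ± 0.200 SE, adjusted p = 0.544). SRSF6 (332.5 and 292.9 against 315.3 and 258.5, adjusted p = 0.435) and SRSF11 (225.1 and 209.4 against 213.2 and 180.1, adjusted p = 0.183) had the same arrangement. SRSF11 was called without R1810A replicate 1 (adjusted p = 0.0325). The 5 of 10 called stand beside 46.9% of 19202 genes called in either direction, which is near the same share, and beside 24.3% called lower. Among protein-coding genes these shares were 53.7 and 26.2%. The median of the 10 was -0.26, against -0.02 for all genes.

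Over the 10 genes the siPADI2 and R1810A changes in poly(A) RNA, which share no library, ran in a similar order (Pearson r = 0.854, Spearman rho = 0.879, across 10 genes, which are not independent replicates). No such correlation over all genes is given, so the similar order cannot be called particular to the SR genes. PADI2 RNA was lower in both contrasts (log2 -3.65 and -4.185), and its part here was not tested. A test of the difference between both effects over the 8 poly(A) libraries called 1 of the 10, beside 26.1% of 19884 genes tested. That gene was SRSF4, whose effect was higher after siPADI2 by 0.66 on the log2 scale (SE 0.0874, 95% interval 0.47 to 0.84, edgeR adjusted p = 8.37e-05). The level of SRSF4 in WT cells, 73.1 and 72.3 CPM, lay between those of siCtrl and siPADI2 cells. The SRSF2 effects differed by -0.01 (95% interval -0.21 to 0.19, adjusted p = 0.966). Intervals of the other 8 differences all included 0. Scaling by total counts moved the median difference of all genes from -0.0014 to 0.14 and the share of higher calls from 45.1 to 68%, and SRSF4 stayed the 1 SR gene called.

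**Figure D3:**
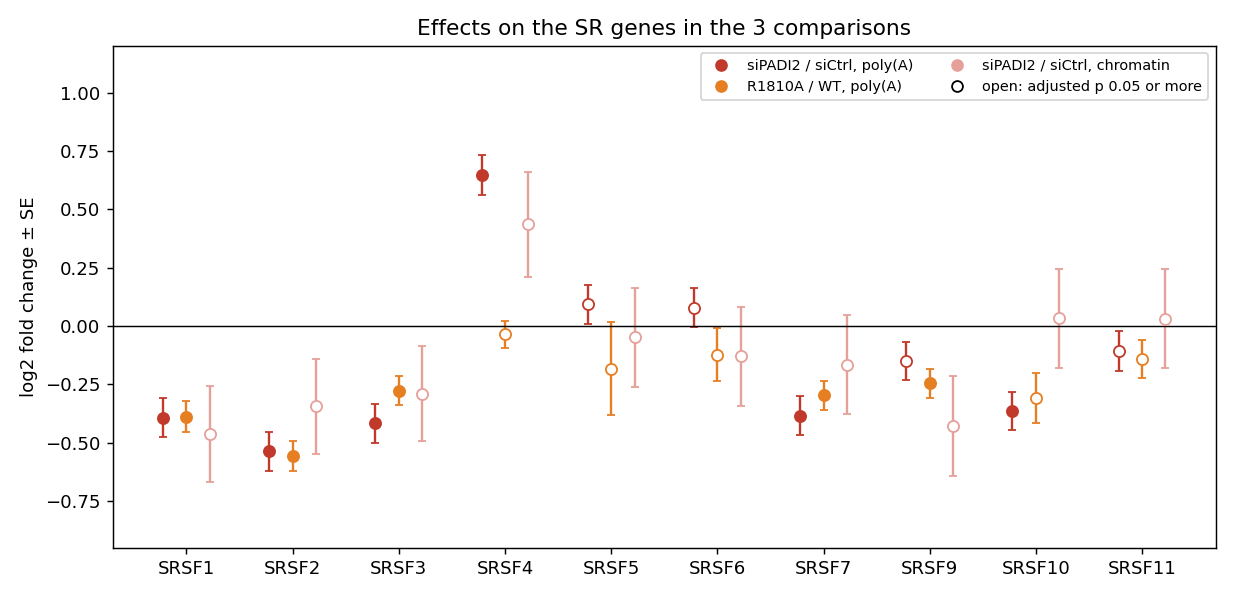
Log2 fold change ± SE of each SR gene (vertical axis) for siPADI2 against siCtrl in poly(A) RNA, R1810A against WT in poly(A) RNA and siPADI2 against siCtrl in chromatin RNA, with filled points where the adjusted p is under 0.05. SRSF1, SRSF2, SRSF3 and SRSF7 lie below 0 and filled in both poly(A) comparisons, SRSF4 stands apart at 0.65 after siPADI2, and no chromatin point is filled.

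In chromatin RNA, which is enriched in transcripts still attached to the polymerase, 0 of the 10 SR genes passed the edgeR test after siPADI2, beside 32.4% of 33879 genes tested. DESeq2 also called 0, beside 12.1% of all genes tested. At an unadjusted edgeR p under 0.05 there were 2, SRSF1 and SRSF9, beside 42.2% of all genes. The members had 63 to 702 counts per chromatin library, and their standard errors of 0.204 to 0.225 on the log2 scale compare with 0.0822 to 0.0861 for the same comparison in poly(A) RNA. SRSF4 was at 10.7 and 7.82 CPM in siCtrl and 14.6 and 10.4 in siPADI2. The groups overlapped, and the change of 0.44 (95% interval -0.0049 to 0.88, adjusted p = 0.123) had the sign of that in poly(A) RNA. SRSF1 was at 33.1 and 30.2 CPM in siCtrl and 26.4 and 19.4 in siPADI2, without overlap (log2 -0.46 ± 0.206 SE, 95% interval -0.87 to -0.06, adjusted p = 0.0681). SRSF2 was at 27.6 and 29.1 against 25.9 and 18.8 (log2 -0.34, adjusted p = 0.185) and SRSF9 at 44.1 and 47.7 against 38.8 and 29.4 (log2 -0.43, adjusted p = 0.109). In SRSF3 the values were 30.6 and 27.1 against 24.7 and 22.4 (log2 -0.29, adjusted p = 0.277). Groups were separate in 4 of the 10 genes (SRSF1, SRSF2, SRSF3 and SRSF9), all lower in siPADI2, beside 33.7% of all genes tested that were lower without overlap and 66.2% without overlap in either direction. SRSF5, SRSF6, SRSF7, SRSF10 and SRSF11 had log2 changes from -0.17 to 0.03 and overlapping groups. The median of the 10 was -0.15, that of all protein-coding genes tested was also -0.15, and that of all genes was 0.03. Single libraries moved these medians: without siPADI2 replicate 1 the SR median was -0.41 and the protein-coding one -0.22, and without siPADI2 replicate 2 they were 0.07 and -0.13. The cytoplasmic markers were not uniform in this comparison. Of these 6 mRNAs, 2 encoded in mitochondria rose, MT-CO1 by 1.82 and MT-ND1 by 1.51 on the log2 scale, and 3 fell, among them ACTB (-1.04) and GAPDH (-1.02), while their summed level went from 1516 to 1690 CPM in siCtrl to 2754 to 3315 in siPADI2. Of the 3 nuclear RNA markers 1 rose (33.3%, beside 12.2% of all genes called higher). Of the 12 luminal markers 7 fell (58.3%, beside 20.1% of all genes and 26.6% of protein-coding genes called lower). The part of these markers in the SR values was not tested.

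The chromatin result depended on the correction for GC content. With each library corrected by a smooth curve over GC content, 5 of the 10 genes (SRSF1, SRSF3, SRSF6, SRSF7 and SRSF9) were called lower, beside 10.5% of the 32228 genes tested at that setting, and the change of SRSF4 was 0.05. The median of the 10 was then -0.55, against -0.07 for all genes and -0.16 for protein-coding genes. With protein-coding genes alone in the fit, SRSF4 was called higher (0.62, adjusted p = 0.0217), as it was with upper quartile scaling (0.60), which moved the median of all genes to 0.20 and the share of higher calls from 37.8 to 54.9%. A test of whether the siPADI2 effect differed between chromatin and poly(A) RNA called 0 of the 10 by edgeR and by DESeq2. Of the 44615 genes tested, edgeR called 8.05% and DESeq2 11.8%. The edgeR test gave 0 of the 10 an unadjusted p under 0.05, beside 16.8% of all genes. Its standard errors were 0.375 to 0.390, and the differences ran from -0.48 for SRSF9 (95% interval -1.23 to 0.26) to 0.20 for SRSF10 (95% interval -0.54 to 0.93). For SRSF4 the difference was -0.41 (95% interval -1.18 to 0.35). This comparison moved with the scaling: with DESeq2 size factors the median of all genes went from -0.16 to 0.14, the share of higher calls from 21.2 to 48.8%, the median of the SR genes from -0.17 to 0.21, and SRSF10 was called (0.58, adjusted p = 0.0374).

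In siCtrl cells all 10 SR genes had a lower share of chromatin RNA than of poly(A) RNA (edgeR adjusted p from 3.63e-17 to 3.02e-07). SRSF1 was at 340.5 and 377.5 CPM in poly(A) RNA and at 33.1 and 30.2 in chromatin RNA, an 11.4-fold ratio of the CPM means. SRSF5 was at 182.2 and 183.0 against 41.5 and 40.0, a 4.48-fold ratio and the smallest of the 10. The fitted values, scaled on the siCtrl libraries alone, were smaller, 8.72-fold for SRSF1 and 3.42-fold for SRSF5. The libraries of both kinds did not overlap in any of the 10 genes, nor in 97.6% of the 39603 genes tested, of which 27.4% were lower in chromatin RNA. On the log2 scale the chromatin value minus the poly(A) value was -3.12 ± 0.366 SE for SRSF1, -3.05 for SRSF3, -2.83 for SRSF2, -2.61 for SRSF7, -2.56 for SRSF9 and -2.47 for SRSF6. It was -2.19 for SRSF11, -2.18 for SRSF4, -2.07 for SRSF10 and -1.77 ± 0.343 for SRSF5. The 95% intervals of the ends of this order, -3.84 to -2.41 for SRSF1 and -2.45 to -1.10 for SRSF5, overlapped slightly, and neighbours were within their errors.

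Of all 39603 genes tested 22.9% were called lower in chromatin RNA, and of the 18255 protein-coding genes 46.9%. Among the 13821 protein-coding genes that also passed the filter in the poly(A) comparison of siRNAs, a background chosen after these values were seen, the share was 61.9%. The median of the 10 SR genes was -2.51, against 5.55 for all genes, -0.38 for protein-coding genes and -1.27 for the protein-coding genes that also passed in poly(A) RNA. Of the last group 8.97% had a lower ratio than SRSF1 and 37.5% a lower one than SRSF5, so all 10 were in the lower part of that distribution without lying at its end. The zero of this scale rests on the normalization. With total counts as library size the SR median was -1.29 and that of protein-coding genes 0.86, and with protein-coding genes alone they were -1.58 and 0.56. All 10 SR genes remained called lower under each setting tried.

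**Figure D4:**
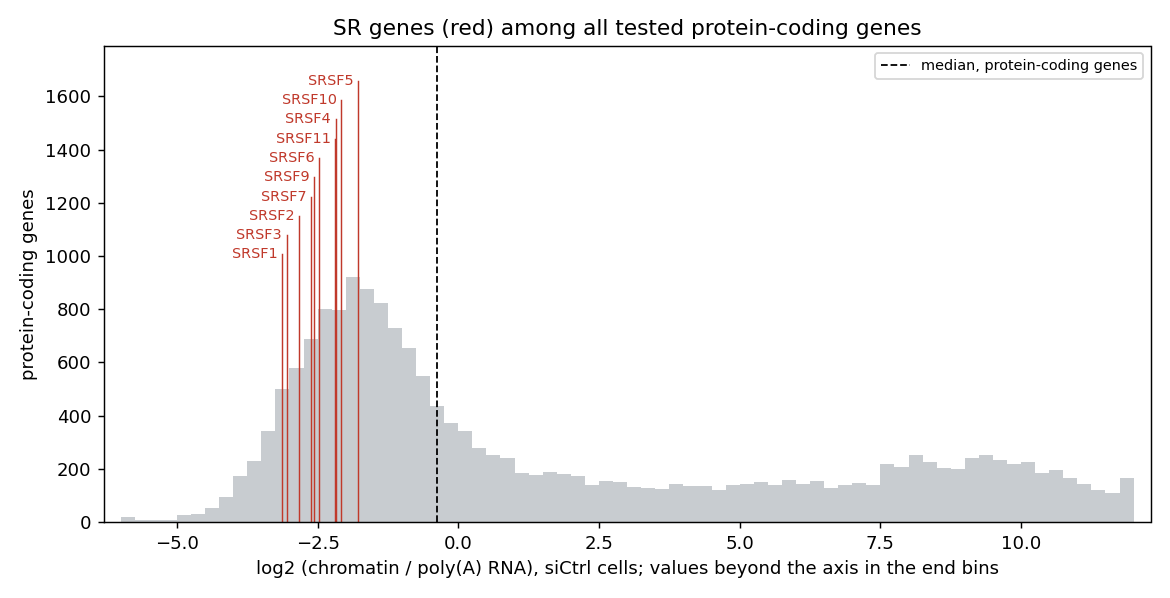
Distribution of the log2 ratio of chromatin to poly(A) RNA in siCtrl cells (horizontal axis) over all 18255 protein-coding genes tested, with gene numbers on the vertical axis, red lines for the 10 SR genes and a dashed line at the protein-coding median of -0.38. The SR genes lie between -3.12 (SRSF1) and -1.77 (SRSF5).

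The same ratio in siPADI2 cells, an alternative chosen after seeing the data and measured on separate libraries, had a median of -2.49 over the 10 genes and a similar order (Pearson r = 0.876 and Spearman rho = 0.830 between both sets, across 10 genes). SRSF1 was again lowest at -3.17, and SRSF10 was highest at -1.66 with SRSF5 next at -1.90. The 6 cytoplasmic mRNA markers, among them GAPDH and RPLP0, were all lower in chromatin RNA of siCtrl cells, with summed levels of 1516 to 1690 CPM against 33782 to 34313 in poly(A) RNA. Of 3 nuclear RNA markers MALAT1 and KCNQ1OT1 were called higher, which is 66.7%, beside 69.7% of all genes tested. The third, NEAT1, was not called, with mean levels of 379.8 CPM in chromatin RNA and 613.4 in poly(A) RNA. Immune markers, at 0.0338 to 0.152 CPM in poly(A) siCtrl, reached 22.3 to 23.0 CPM in chromatin siCtrl, and the basal epithelial markers went from 1.18 to 1.34 CPM to 29.2 to 36.8 CPM, so the chromatin libraries also hold counts over genes with little poly(A) RNA. Their part in the SR ratios was not tested. The fractions also differ in library kit, poly(A) selection against ribosomal RNA depletion, in depth and in counting version, and these cannot be told apart from the fraction.

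Genes that act on or beside SR proteins were described from lists by function, with calls at an edgeR adjusted p under 0.05. The counts are read against the shares of all genes tested, which were 56.7% called after siPADI2 in poly(A) RNA (28.8% higher, 27.9% lower), 46.9% in R1810A (24.3% lower) and 32.4% after siPADI2 in chromatin RNA (20.1% lower), with medians of 0.01, -0.02 and 0.03. Among protein-coding genes 63.5% were called after siPADI2 in poly(A) RNA (30.8% lower) and 53.7% in R1810A (26.2% lower). No list was tested as a set. Among 12 kinases and phosphatases of SR proteins, 2 rose and 1 fell after siPADI2, which is 25% called and under the 56.7% of all genes. DYRK1A, a kinase of splicing factors, rose by 0.50 ± 0.0841 SE on the log2 scale (adjusted p = 2.72e-06), CLK1, which phosphorylates the tail in the nucleus, rose by 0.26 (adjusted p = 0.00955), and the phosphatase subunit PPP1CA was at -0.34 (adjusted p = 6.73e-04). The median of the 12 was -0.06. In R1810A, 1 of them rose and 6 fell, with a median of -0.26, so that 50% were lower beside 24.3% of all genes. The largest falls were those of CLK3 (-0.44, adjusted p = 1.80e-04), PPP1CC (-0.44) and SRPK1 (-0.40, adjusted p = 8.02e-05), the last being the cytoplasmic kinase that primes SR proteins for import. In chromatin RNA 3 of the 12 fell after siPADI2, SRPK3 (-1.53), CLK3 (-0.74) and PPP1CA (-0.70). This is 25%, beside 20.1% of all genes and 26.6% of protein-coding genes called lower.

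Of 5 genes for nuclear transport of SR proteins and mRNA, 2 fell after siPADI2 and 2 in R1810A, 40% of this short list beside 27.9 and 24.3% of all genes called lower. In both cases these were TNPO3, the import receptor of phosphorylated SR proteins (-0.42 and -0.36), and ALYREF, an adaptor of mRNA export (-0.43 and -0.40). ALYREF was also lower in chromatin RNA after siPADI2 (-0.78, adjusted p = 0.00542). Among 26 SR-related proteins tested, 10 rose and 5 fell after siPADI2, with a median of 0.04, and the 57.7% called is near the 56.7% of all genes. ACIN1, part of a splicing complex that joins the exon junction complex, fell by 0.71 on the log2 scale (adjusted p = 2.98e-09), and LUC7L, a protein of the U1 particle, rose by 0.65 (adjusted p = 1.54e-07). In R1810A 1 rose and 5 fell, 23.1% called beside 46.9%, with ACIN1 again (-0.61, adjusted p = 2.55e-06) and TRA2B, a regulator of exon inclusion (-0.44), among those that fell. RSRC1 rose in both comparisons, by 0.40 and 0.36.

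The hnRNP proteins often act against SR proteins at the same exons. After siPADI2, 11 of 25 fell (44% beside 27.9% of all genes) and 3 rose, with a median of -0.16, and the largest changes were HNRNPA3 (-0.70, adjusted p = 1.62e-09), HNRNPM (-0.66) and PCBP2 (-0.55). In R1810A, 14 of 25 fell and 0 rose (56% lower beside 24.3% of all genes), with a median of -0.19 and PCBP2 (-0.51), HNRNPR (-0.39) and HNRNPA3 (-0.35) in the lead. Of 20 genes of U1, U2 and 3′ splice site recognition, 9 fell and 4 rose after siPADI2 (PHF5A 0.71, SNRPA -0.55, SNRPA1 0.51) and 5 fell and 1 rose in R1810A (SNRPA -0.38, SF3B3 -0.34, U2AF2 -0.32). These are 65% called beside 56.7% of all genes and 63.5% of protein-coding genes, and 30% beside 46.9 and 53.7%. Called lower were 45 and 25%, beside 27.9 and 24.3% of all genes. The siPADI2 effect on PHF5A, a small subunit of the U2 particle, exceeded the R1810A effect by 0.75 (adjusted p = 2.35e-04). Of 14 genes of nonsense-mediated decay and the exon junction complex, 5 fell and 1 rose after siPADI2, among them SMG9 (-0.86, adjusted p = 4.05e-10) and UPF2 (0.43), and 7 fell in R1810A, among them SMG9 (-0.52) and UPF3B (-0.39). Of this list 42.9% were called after siPADI2 beside 56.7% of all genes, and 50% in R1810A beside 46.9%. Those called lower were 35.7 and 50%, beside 27.9 and 24.3% of all genes. In chromatin RNA after siPADI2, 3 of these 14 fell, UPF1 (-1.26), SMG5 (-0.75) and SMG6 (-0.60). So did 2 of 25 hnRNP genes, PTBP1 (-1.05) and HNRNPL (-0.61). That is 21.4 and 8% lower, beside 20.1% of all genes and 26.6% of protein-coding genes. Of the 20 splice site recognition genes 7 fell there and 1 rose, led by SF3A2 (-1.01), PUF60 (-0.99) and SNRPA (-0.88), and of 27 SR-related genes 1 fell, SCAF1 (-0.91). These are 35 and 3.7% lower, beside the same 20.1 and 26.6%.

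The genes most like an SR gene over the 6 groups were found by the distance between group means of log2 CPM, each centred on its own mean, among 17105 genes. The nearest to SRSF2 were TOB2 at a distance of 0.0792, THNSL2 at 0.139 and ESRP1 at 0.149. SRSF4 had no gene as close, with AKTIP at 0.226, MPHOSPH8 at 0.251 and ZNF605 at 0.254. Within the family the closest pair was SRSF6 and SRSF9 at 0.306, and the most distant was SRSF1 and SRSF10 at 1.41. Each SR gene had nearer genes outside the family, where far more genes were searched. That alone does not say whether the members are alike.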

How the data were processed

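RNA was sequenced from T47D-MTVL cells with stranded kits, after poly(A) selection (8 libraries) or, for chromatin RNA, after ribosomal RNA depletion (4 libraries). The deposited values are raw read counts per gene, made by the authors with featureCounts per the file headers (version 1.5.1 for poly(A), 1.4.6-p2 for chromatin RNA, read pairs, strand-aware, exons of GENCODE 19 genes on hg19). STAR and Trimmomatic are named per the submitters' processing notes, with versions not given in the sources used here. Deeper libraries give more precise counts, and the chromatin libraries are the shallowest.

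Genes were named through GENCODE 29 by identifier (52338 of 57820 matched), which also gave biotype, GC content and transcript length. Each comparison was fitted over all genes in R 4.3.3 with edgeR 4.0.16 (filterByExpr, TMM, robust quasi-likelihood F test, Benjamini-Hochberg adjustment, threshold 0.05) on its own libraries, and differences between effects as contrasts. Displayed CPM used TMM factors over all 12 libraries (0.646 to 0.728 in poly(A), 1.82 to 2.24 in chromatin RNA), so levels across fractions depend on this scaling. The fits were also run on simulated counts, with spreads estimated from these data and few changed genes. Far more genes were called in the real comparisons, so the simulation does not show the error rates there. Libraries of a group differed beyond sampling noise (chi-square per degree of freedom 3.55 to 91.7). Alternatives were other normalizations, protein-coding genes alone, no filter, DESeq2 1.42.0, all 12 libraries in 1 fit, GC correction, the replicate number as a block, and each library left out.

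The members and the lists were chosen with earlier results of these data known. Named besides the 10 genes were PADI2 and, from each list, at most 3 called members with the largest change in a comparison; for likeness, the 3 nearest genes of SRSF2 and SRSF4. A gene that this rule names in the decay list is not reported here. Promoters were read from RefSeq and searched for exact motif matches on both strands. Single library values are given because each group has 2 libraries.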

Additional observations from a re-analysis of the deposited data

Results flagged for a closer look

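SRSF4 was the SR gene whose response differed between both poly(A) experiments. The test of the difference gave a siPADI2 effect that exceeded the R1810A effect by 0.655 on the log2 scale (edgeR adjusted p = 8.37e-05). Its levels were 53.5 and 55.8 CPM in siCtrl, 88.7 and 88.9 in siPADI2, 73.1 and 72.3 in WT and 71.9 and 69.5 in R1810A. Over 13 alternative settings the difference stayed between 0.64 and 0.80, with adjusted p between 2.75e-09 and 0.00103. The WT and R1810A cells also differ from the siRNA cells in alpha-amanitin treatment and in the transfected polymerase, which cannot be told apart from the difference between both contrasts.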

How the results depend on the processing

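Under 13 alternatives to the siPADI2 comparison in poly(A) RNA, the calls of SRSF1, SRSF2, SRSF3, SRSF4 and SRSF7 held in all 13 and that of SRSF10 in 11, and all 10 genes stayed called lower in chromatin against poly(A) RNA of siCtrl cells. SRSF1 and SRSF2 held in R1810A in all 13. In R1810A the count of 5 members called became 2 with all 12 libraries in 1 fit, where 13.6% of all genes were called, against 46.9% in the main fit. With 1 library left out, the lone library of a group is assumed to vary like the other group. The replicate numbers are not stated to pair libraries. Same-numbered libraries had deviations with a correlation of 0.104 in the siRNA and 0.458 in the polymerase experiment, over 2 pairs each. With the replicate number as a block, 6 members were called after siPADI2, beside 61.5% of all genes tested. In R1810A 9 were called, all lower, beside 65.5% of all genes called and 34.4% called lower. No paired analysis was possible for chromatin RNA because its groups share fewer than 2 replicate numbers. The count of 0 in chromatin RNA became 1 with upper quartile scaling (34.9% of all genes called) and with protein-coding genes alone (36.2%). It became 2 with all 12 libraries in 1 fit (23.9%) and 5 with GC correction (16%). For the difference between siPADI2 and R1810A effects the count of members called was 2 with no filter, beside 15.7% of all genes. For the difference between fractions it was 1 with DESeq2 size factors, beside 13.8% of all genes. The causes were not tested.

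Changes of sign fell on genes that were not called in the comparison. With total counts as library size, log2 values were 0.03125 for SRSF9 and 0.0749 for SRSF11 after siPADI2 in poly(A) RNA, 0.0271 for SRSF4 in R1810A, 0.06235 for SRSF5 in chromatin RNA and 0.14 for the SRSF2 difference between siPADI2 and R1810A. GC correction gave -0.016 for SRSF6 after siPADI2 in poly(A) RNA, and -0.49 for SRSF10 and -0.48 for SRSF11 in chromatin RNA. Upper quartile scaling gave 0.00215 for SRSF4 in R1810A, and 0.12 for SRSF5, 0.0349 for SRSF6 and 0.00412 for SRSF7 in chromatin RNA. With protein-coding genes alone these 3 were 0.13, 0.0441 and 0.01465. With no filter SRSF10 was -0.0307 and SRSF11 -0.0321 in chromatin RNA, and the SRSF2 difference was 0.0773, against 0.0763 with all 12 libraries in 1 fit. With 1 library left out, SRSF5 in R1810A was -0.34 to 0.00536. In chromatin RNA SRSF5 was -0.15 to 0.0436, SRSF6 -0.53 to 0.18, SRSF7 -0.47 to 0.0892, SRSF10 -0.20 to 0.25 and SRSF11 -0.18 to 0.21. The SRSF2 difference was -0.0398 to 0.0592, and between fractions SRSF10 was -0.11 to 0.64 and SRSF4 -0.69 to 0.0333. The chromatin libraries held the fewest counts, and the part of depth in the wider errors there was not tested.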
